A study of Schizosaccharomyces pombe with 5 samples.

Results

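The genes described here are the chromatin remodelling and silencing genes of fission yeast that carry a symbol of the clr, swi, rsc, snf, ssr, spt, set, hrp or chp series followed by a number. The symbols were those of the platform annotation, and the pattern took in 50 genes of the 4819 that were named by 1 symbol. All 50 had 1 spot each and a value on all 5 arrays. The pattern goes by name and not by function. The swi symbols come from mating-type switching, so swi1, swi2, swi3, swi5 and swi10 act in replication, recombination and DNA repair, and set11 and set13 encode methyltransferases of ribosomal proteins.

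Cells of the Schizosaccharomyces pombe strain L972 were grown in minimal medium at 26 °C and then starved of nitrogen for 48 h, by which time they rest in G0. Growth was then resumed by adding 4 volumes of fresh medium with nitrogen. The tested RNA, labelled with Cy5, came from cells 1, 2, 3.5 and 6 h after this replenishment or from vegetative cells in logarithmic growth that had not been starved, and the RNA it was set against on every array, labelled with Cy3, came from the G0 cells of the same strain. There was 1 array per condition and no repeat, fresh medium and nitrogen were added together, and the labels do not say whether 1 G0 preparation served all arrays.

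Each value is the deposited log ratio of the condition over G0, read here as a log2 ratio, so 1 is 2-fold above G0 and -1 is 2-fold below it. Base 2 is an assumption, and fold values hold only under it. A gene was counted as different at 2-fold or more in either direction, a limit on size alone: no comparison has a replicate, so none was tested. The only measured error is that between repeated spots of 1 array, with an SD of 0.18 to 0.25 over the genes cdc2, nda3 and nuc1 and of 0.38 to 0.47 over 12 unnamed repeated positions. For nda3, 1 of 16 spots was left out on all arrays, although the authors' averages omit it at 1 and 2 h only, and with it kept the first SD is 0.22 to 0.29. Of the 55 member values past 2-fold over the 5 arrays, 16 lay within 1 spot SD (of the 3 genes) of the limit, as did 25 member values that missed it. With the nda3 spot kept the numbers are 21 and 26. The larger SD of the unnamed positions was not used for these counts. With it, more values would lie within 1 SD of the limit, such as ssr2 at 1.39 at 6 h (SD of 0.47). Values of the 1 h and 2 h arrays were deposited with 9 decimals and those of the other arrays with 3. Gene medians ran between 0.00 and 0.14, so the zero point relative to the median gene differed between arrays. Whether this came from the processing or from the cells was not tested.

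In fission yeast, silent chromatin forms at centromeres, telomeres and the mating-type region. The methyltransferase Clr4 marks histone H3 there, chromodomain proteins such as Swi6, Chp1 and Chp2 bind the mark, and histone deacetylases keep the region free of acetyl groups. In open chromatin, remodelling complexes such as RSC and SWI/SNF move nucleosomes, SAGA acetylates histones and contacts promoters, and elongation factors and histone chaperones take nucleosomes apart and rebuild them around RNA polymerase II.

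At 1 h after nitrogen return, 10 of the 50 genes were at least 2-fold above G0 and 5 at least 2-fold below it. Over all genes measured, 23.4% were above and 22.6% below that limit, 46% in all. Of the 10 genes above it, 5 were SET domain genes, led by set13 at 16.9-fold, set7 at 9.29-fold and set5 at 5.75-fold, followed by set9 and set2. The others were the CHD remodeller gene hrp1 at 3.63-fold, the elongation factor gene spt4 at 3.54-fold, chp1, spt2 and snf59. Below G0 were the SAGA subunit genes spt8, 3.83-fold lower, and spt7, 2.71-fold lower, the deacetylase gene clr3, 3.16-fold lower, and set6 and snf30. The median of the 50 genes was 0.10, beside 0.06 over all genes. Centring each block of spots gave 7 above and 7 below, beside 21.5% and 24.7% of all genes. Centring and scaling the arrays to a common spread gave 6 and 5, beside 18.9% and 18.8% of all genes.

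At 2 h, 9 of the 50 genes were 2-fold above G0 and 3 below, beside 22.8% and 21.3% of all genes (44.1% in all). The SET domain genes set7, set13 and set5 again had the highest values of the 50, and clr5 and ssr2 were past the limit where at 1 h they were not. Below G0 were set6 at 4.75-fold, swi5 at 2.53-fold and swi2 at 2.11-fold. None of the 5 genes that were low at 1 h other than set6 was past the limit at 2 h. The median of the 50 genes was 0.23, beside 0.00 over all genes.

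At 3.5 h, 8 of the 50 genes were 2-fold above G0 and 2 below, beside 18.9% and 16.7% of all genes (35.6% in all). The 8 were set5, set7, set13, chp1, ssr2, set9, spt2 and set10, and the 2 below were set6 and swi2. The members' median was 0.15, beside 0.14 over all genes. Centring the arrays took away that shift of 0.14 and gave 6 higher and 3 lower, beside 15.9% and 19.7% of all genes. The split was 7 and 4 with scaled arrays, beside 16.5% and 20.3% of all genes. With centred blocks it was 6 and 4, beside 14.8% and 20.8% of all genes.

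At 6 h, 6 of the 50 genes were 2-fold above G0 and 5 below, beside 15.6% and 14.9% of all genes (30.5% in all). Above were set7, ssr2, set5, spt4, set9 and swi6, and below were the RSC ATPase gene snf21, the silencing gene clr1, snf30, set6 and swi2. The highest value was 1.49, for set7, and the members' median was 0.14, beside 0.04 over all genes.

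In vegetative cells, 5 of the 50 genes were 2-fold above G0 and 2 below, beside 15.8% and 14.6% of all genes (30.4% in all). Above were spt4 at 2.95-fold, ssr2 at 2.58-fold, swi6 at 2.49-fold, set5 at 2.27-fold and set10 at 2.00-fold. Below were swi2 at 2.90-fold and snf21 at 2.41-fold. The members' median was -0.06, beside 0.09 over all genes. Moving the zero point alone changed the split to 4 and 4 with centred arrays, beside 13.8% of all genes higher and 16.3% lower. With centred blocks it was 5 and 5, beside 12.8% and 17.0% of all genes. Centring and scaling together gave 5 and 8, beside 17.2% of all genes higher and 20.3% lower under that setting.

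**Figure D1:**
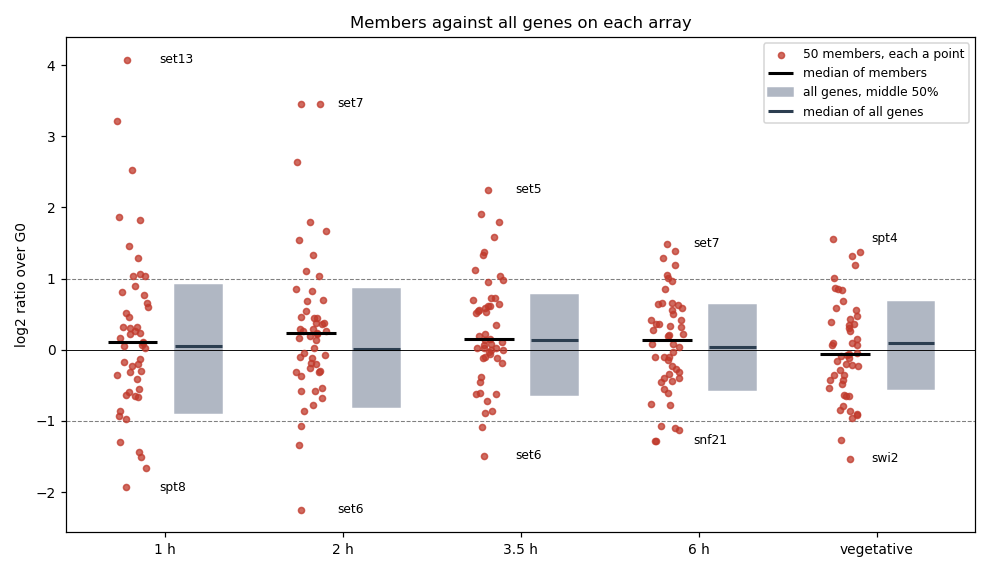
Log2 ratio over G0 (vertical axis) on each of the 5 arrays: red points are the 50 members with their median as a black bar, and grey boxes span the middle 50% of all genes with their median as a dark bar. Dashed lines mark 2-fold. The spread of the members was smaller than that of all genes on every array, with SDs of 1.16 and 1.53 at 1 h and of 0.70 and 1.14 in vegetative cells.

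The values of the 50 genes spanned a narrower range over the arrays than those of all genes, a description with no test. The span between a gene's highest and lowest log2 ratio had a median of 0.80 for the members, beside 1.20 for the 4708 genes measured on all arrays. It reached 2 for 5 members (10%), which were set13, set7, spt8, clr5 and snf21, and for 20.4% of all genes. In all, 23 of the 50 genes (46%) were past 2-fold on at least 1 array, 14 of them above G0 and 9 below, beside 66.7% of all genes. None of the 23 was past the limit in both directions. The split by direction was not counted over all genes, so nothing is read from it. The SET domain gene set5 was above it on all 5 arrays, beside 7.75% of all genes, and no member was below it on all 5, beside 6.10% of all genes.

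**Figure D2:**
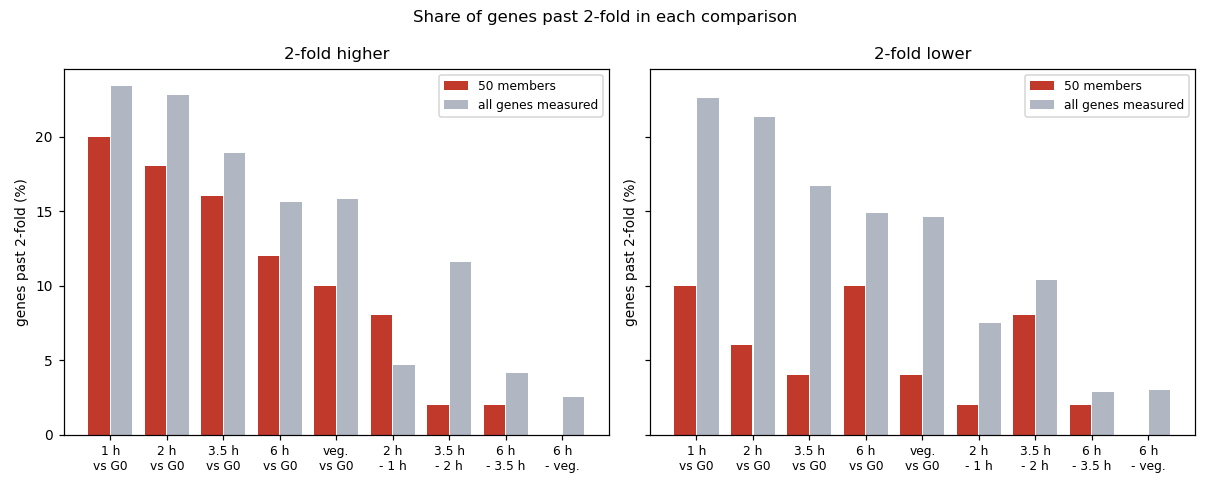
Percent of genes at least 2-fold higher (left) and lower (right) in each comparison, for the 50 members in red and for all genes measured in grey. The members' share was below that of all genes in every comparison and direction except 2 h minus 1 h, 2-fold higher, where it was 8% against 4.67%.

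The 4 genes of the heterochromatin mark and its readers had 4 different courses. The methyltransferase gene clr4, whose product marks histone H3 for silencing, had log2 ratios of 0.10, 0.13, 0.19 and 0.09 at 1, 2, 3.5 and 6 h and -0.21 in vegetative cells. All 5 values were near G0. The gene swi6, which encodes the HP1 protein that binds the mark, stood at -0.32, -0.20, -0.01 and 1.00 at 1, 2, 3.5 and 6 h and at 1.32 in vegetative cells. It was thus somewhat below G0 at 1 h, at G0 by 3.5 h and high in the last 2 conditions, and its 6 h value lay at the 2-fold limit. The other HP1 gene, chp2, which works with the deacetylase complex SHREC, was below 0 on every array, at -0.66, -0.77, -0.12 and -0.40 at 1, 2, 3.5 and 6 h and -0.48 in vegetative cells. The chromodomain gene chp1, whose product belongs to the RNA interference effector complex RITS, ran the other way. It stood at 1.29, 1.10, 1.58 and 0.97 at 1, 2, 3.5 and 6 h and at 0.86 in vegetative cells, so it was above G0 throughout and past 2-fold on the first 3 arrays. With arrays centred and scaled, its 1 h and 2 h values were 0.996 and 0.968, under the limit.

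Among the clr genes of deacetylation, the SHREC subunit genes clr1, clr2 and clr3 did not share 1 course. The class II deacetylase gene clr3 stood at -1.66 at 1 h and between -0.63 and -0.20 on the other 4 arrays. The zinc finger gene clr1 was low on every array, between -0.86 and -0.93 on 4 of them and at -1.28 at 6 h. For clr2 the values were -0.20, -0.25, 0.72 and 0.86 at 1, 2, 3.5 and 6 h and 0.59 in vegetative cells. Its first 2 values lay below 0 and its last 3 above. The class I deacetylase gene clr6, whose product acts on many promoters as well as in silencing, ranged from -0.41 at 1 h to 0.59 at 6 h. The gene clr5, which helps to repress the mating-type region, had a value of 1.67 at 2 h, between 0.32 at 1 h and -0.72 at 3.5 h. That is 1 spot on 1 array, with nothing to check it.

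The 14 RSC and SWI/SNF genes encode subunits of the 2 large remodelling complexes of this family, of which ssr1, ssr2, ssr3 and ssr4 are shared by both. Their medians were 0.23, 0.34, 0.19 and 0.05 at 1, 2, 3.5 and 6 h and 0.00 in vegetative cells. The 5 rsc genes (rsc1, rsc4, rsc7, rsc9 and rsc58) stayed between -0.65 and 0.70 on all arrays. Among the shared subunits ssr2 stood apart in value, at 0.90, 1.33, 1.37 and 1.39 at 1, 2, 3.5 and 6 h and 1.37 in vegetative cells, while ssr1, ssr3 and ssr4 stayed between -0.32 and 0.66. The ATPase genes of both complexes were lower on the later arrays. The RSC ATPase gene snf21 stood at 0.81, 0.68, -0.62 and -1.28 at 1, 2, 3.5 and 6 h and at -1.27 in vegetative cells. Its SWI/SNF counterpart snf22 stood at 0.23, 0.44, 0.22 and -0.615 at 1, 2, 3.5 and 6 h and at -0.85 in vegetative cells, and did not pass 2-fold. Both were above G0 at 1 and 2 h and below it at 6 h and in vegetative cells. Of the other SWI/SNF genes, snf59 stood at 1.04 at 1 h and 1.03 at 2 h and at 0.06 in vegetative cells, snf30 was below 0 throughout, from -1.30 at 1 h to -0.58 at 2 h, and snf5 stayed between -0.18 and 0.46.

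The CHD remodeller genes hrp1 and hrp3 encode related ATPases that space nucleosomes and act at centromeres. The values of hrp1 were 1.86, 1.79, 0.96 and 0.20 at 1, 2, 3.5 and 6 h and 0.36 in vegetative cells. Those of hrp3 were 0.06, 0.16, 0.62 and 0.42 at 1, 2, 3.5 and 6 h and -0.35 in vegetative cells. At 1 and 2 h hrp1 was past 2-fold and hrp3 near G0, and at 6 h the values of both lay close together. Spots of related genes such as hrp1 and hrp3 or snf21 and snf22 may share signal, which was not tested.

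The spt genes of SAGA, a complex that acetylates histones and brings in the TATA-binding protein, had a median of -0.56 at 1 h and between -0.12 and 0.10 on the other arrays. The lowest at 1 h were spt8 and spt7. The gene spt8 stood at -1.94, -0.58, 0.35 and 0.62 at 1, 2, 3.5 and 6 h and at -0.10 in vegetative cells. The gene spt7 stood at -1.44, -0.07, 0.08 and -0.10 at 1, 2, 3.5 and 6 h and at -0.15 in vegetative cells. Both were past 2-fold at 1 h alone. The scaffold gene spt20 ran from 0.51 at 1 h to -0.77 at 6 h and -0.90 in vegetative cells, and spt3 was highest in vegetative cells, at 0.84.

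Partners in elongation factors and histone chaperones had unlike values. The Spt4 and Spt5 proteins form 1 elongation factor, yet spt4 stood at 1.82, 0.44, 0.55 and 1.20 at 1, 2, 3.5 and 6 h and 1.56 in vegetative cells, while spt5 stayed between -0.31 and -0.03 on all arrays. Spt16 is the large subunit of the chaperone FACT, and spt16 stood at -0.97, -0.37, 0.72 and 0.42 at 1, 2, 3.5 and 6 h and at -0.23 in vegetative cells. The gene of its FACT partner, pob3, was not among the 50 and stood at 0.58, 0.71, 0.81 and 1.05 at 1, 2, 3.5 and 6 h and at 1.17 in vegetative cells. The histone chaperone gene spt6 ranged from 0.11 to 0.53, and spt2 from 0.47 in vegetative cells to 1.12 at 3.5 h.

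The SET domain genes held the highest values of the 50 on the 4 arrays after nitrogen return. Over all genes, 23.4%, 22.8%, 18.9% and 15.6% were 2-fold above G0 at 1, 2, 3.5 and 6 h and 15.8% in vegetative cells. The shares below were 22.6%, 21.3%, 16.7% and 14.9% at 1, 2, 3.5 and 6 h. Of the 11 SET domain genes, 5, 4, 5 and 3 were 2-fold above G0 at 1, 2, 3.5 and 6 h and 2 in vegetative cells, and set6 alone was 2-fold below, on the 4 time course arrays. The highest was set13, whose product methylates a protein of the large ribosomal subunit, with 4.08, 3.45, 1.80 and 0.36 at 1, 2, 3.5 and 6 h and 0.43 in vegetative cells. At 1 h 99.7% of all genes had a lower value, and at 6 h 65.0% did. The gene set7, whose product methylates histone H3, stood at 3.22, 3.46, 1.91 and 1.49 at 1, 2, 3.5 and 6 h and at 0.68 in vegetative cells. At 2 h 99.2% of all genes were lower. For set5 the values were 2.52, 2.64, 2.25 and 1.28 at 1, 2, 3.5 and 6 h and 1.19 in vegetative cells. All 3 were highest in the first 2 h and lower at 6 h than at 3.5 h.

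The other SET domain genes had lower values than set13, set7 and set5 at 1, 2 and 3.5 h. The histone H4 methyltransferase gene set9, which serves the DNA damage checkpoint, stood at 1.46, 1.54, 1.34 and 1.05 at 1, 2, 3.5 and 6 h and 0.85 in vegetative cells. The gene set2, whose product travels with elongating RNA polymerase II, stood at 1.04 at 1 h and at 0.09 in vegetative cells, with values in between at 2, 3.5 and 6 h. The gene set1 of the COMPASS complex, which marks active promoters, was highest at 3.5 h, at 0.99, and lowest at 1 h, at -0.35. The gene set3, a subunit of a deacetylase complex, was above 0 at 1 and 2 h and between -0.54 and -0.38 afterwards. The values of set6 were -1.50, -2.25, -1.49 and -1.10 at 1, 2, 3.5 and 6 h and -0.79 in vegetative cells, all below G0. The gene set10 was just past 2-fold at 3.5 h, at 1.03, and in vegetative cells, at 1.00, and both values fell under the limit with centred arrays. With arrays centred and scaled and with centred blocks, the 3.5 h value was also under it, at 0.92 and 0.80. The vegetative value stayed past it in these 2 settings, at 1.09 and 1.05. The genes set8 and set11 stayed between -0.68 and 0.02.

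The 5 swi genes other than swi6 had medians of -0.30, -0.19, -0.45 and -0.44 at 1, 2, 3.5 and 6 h. In vegetative cells their median was -0.65. The medians over all genes were 0.06, 0.00, 0.14 and 0.04 at these times and 0.09 in vegetative cells. Of the 5 genes, 2, 1, 2 and 0 were above 0 at 1, 2, 3.5 and 6 h and 0 in vegetative cells. The proteins Swi2 and Swi5 work together in choosing the donor for mating-type switching, and Swi5 also assists recombination. The values of swi2 were -0.86, -1.08, -1.09 and -1.08 at 1, 2, 3.5 and 6 h and -1.53 in vegetative cells, and those of swi5 were -0.59, -1.34, -0.61 and -0.77 at 1, 2, 3.5 and 6 h and -0.86 in vegetative cells. Both genes were below 0 on all arrays. The replication fork genes swi1 and swi3, whose products form 1 complex, differed most at 1 h, when swi1 stood at -0.30 and swi3 at 0.76. On the other arrays swi1 stayed between -0.45 and -0.19 and swi3 between -0.29 and 0.19. The excision repair gene swi10 had 0.03, -0.12, 0.03 and -0.44 at 1, 2, 3.5 and 6 h and -0.65 in vegetative cells.

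**Figure D3:**
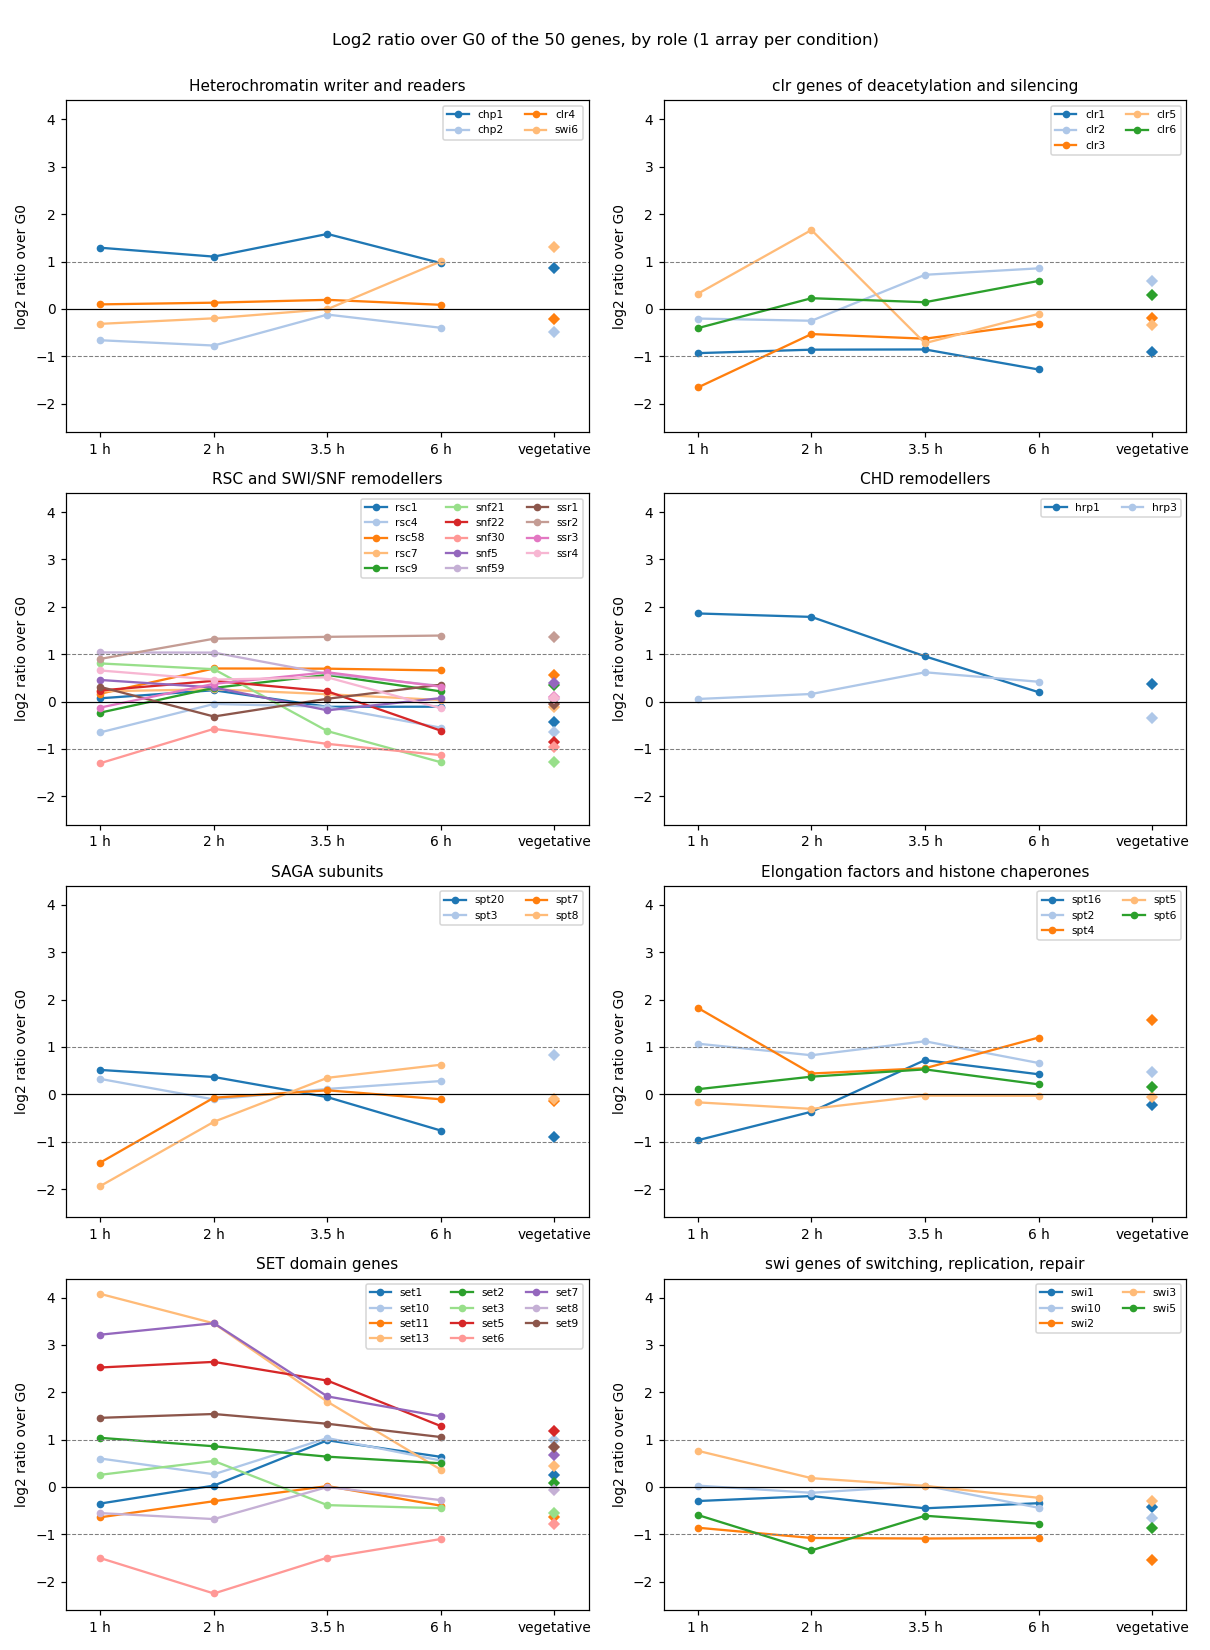
Log2 ratio over G0 (vertical axis) of every member, in 1 panel per role, at 1, 2, 3.5 and 6 h after nitrogen return (joined circles) and in vegetative cells (diamonds), with 1 array per condition and no error bars. Dashed lines mark 2-fold; set13, set7 and set5 are the highest at 1 h, at 4.08, 3.22 and 2.52, swi6 passes 2-fold at 6 h and in vegetative cells, and snf21 crosses from 0.81 at 1 h to -1.28 at 6 h.

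From one array to the next, few of the 50 genes moved by 2-fold or more, and a difference between arrays carries the error of 2 spots. At 2 h, 4 members were 2-fold higher than at 1 h and 1 was lower, beside 4.67% and 7.49% of all genes (12.2% in all). The SAGA gene spt7 was at -0.07 at 2 h, against -1.44 at 1 h, a difference of 1.37. Its partner spt8 differed by 1.36, clr5 by 1.34 and clr3 by 1.13. The lower one was spt4, at 0.44 at 2 h against 1.82 at 1 h.

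At 3.5 h, 1 member was 2-fold higher than at 2 h and 4 were lower, beside 11.6% and 10.4% of all genes (22% in all). The gene spt16 differed by 1.09. The lower ones were clr5 (-2.39), set13 (-1.65), set7 (-1.55) and snf21 (-1.31). With arrays centred or scaled, spt16 was no longer past the limit, and the split was 0 and 5 in both. Of all genes, 9.21% were higher and 13.1% lower with centred arrays, and 7.64% and 11.3% with scaled arrays. With centred blocks the split was 1 and 6, beside 8.68% and 14.1% of all genes. The 2 h and 3.5 h arrays also belong to the 2 sets of columns with different decimals, so time and set cannot be told apart here.

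At 6 h, 1 member was 2-fold higher than at 3.5 h and 1 lower, beside 4.13% and 2.85% of all genes (6.98% in all). The higher one was swi6, at 1.00 at 6 h against -0.01 at 3.5 h, and the lower one was set13, at 0.36 at 6 h against 1.80 at 3.5 h. A lower value at 6 h than at 3.5 h was found for 35 of the 50 genes (70%), beside 56.3% of all genes. The median difference was -0.24, beside -0.09 over all genes, and its size rested on the zero point: it was -0.14 with centred arrays, -0.11 with arrays centred and scaled and -0.035 with centred blocks.

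Between 6 h and vegetative growth, 0 of the 50 genes differed by 2-fold, beside 2.54% of all genes higher at 6 h and 3.03% lower (5.57% in all). The largest differences were those of set7, at 1.49 at 6 h against 0.68 in vegetative cells, and hrp3, at 0.42 at 6 h against -0.35 in vegetative cells. On the other side was spt3, at 0.28 at 6 h against 0.84 in vegetative cells. With scaled arrays, 2 members were 2-fold higher at 6 h, beside 5.30% of all genes.

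By the RefSeq gene table of assembly ASM294v3, 21 members lie on chromosome I, 20 on II and 9 on III. At 1 h the members' medians were 0.26 on chromosome I, -0.35 on II and 0.32 on III, beside 0.01, 0.10 and 0.08 over all genes of chromosomes I, II and III. In vegetative cells the members' medians were 0.09 on I, -0.22 on II and 0.47 on III, beside 0.07, 0.13 and 0.08 over all genes. The members' median was highest on III and lowest on II on all 5 arrays, though at 3.5 h those on I and II were nearly equal, at 0.06 and 0.0565. Per array, 16.9% to 20.8% of all genes on III were 2-fold lower, beside 0 of the 9 members on III. This is a description with no test. Of these 9, 5 are set genes (set1, set5, set7, set9 and set11). Of the 50 genes, 22 overlap a neighbouring protein-coding gene in that annotation. The labels give no spot sequences, so signal from an overlapping neighbour cannot be told apart. Both genes of a pair had a value at 1 h for 20 of these pairs, of which 9 lay on the same side of 0 and 9 lay within 1 of each other on the log2 scale. At 6 h the counts were 11 and 16 of 19 pairs. Pairs with unlike values, picked after their values were seen, included spt16 at -0.97 at 1 h with the ribosome assembly gene nop2 at 3.41. The values of this pair were close at 6 h, at 0.42 for spt16 and 0.63 for nop2. Pairs with like values, picked in the same way, included swi1 at -0.30 at 1 h with rad3 at -0.50, and swi5 at -0.59 with mis12 at -1.36.

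Other genes of the same pathways were read from lists of 129 entries, of which 123 were distinct measured genes. At 1 h, 17 of the 123 were 2-fold above G0 and 27 below. At 2 h the counts were 16 above and 18 below of 122, at 3.5 h 12 and 9, at 6 h 12 and 5 and in vegetative cells 9 and 13, each of 123. The shares of all genes given above are the background for these counts too.

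RNA interference guides Clr4 to centromeric repeats. The list of its genes and those of the Clr4 complex also held the SHREC remodeller gene mit1 and the anti-silencing gene epe1, neither of which passed 2-fold on any array. Of the 16 genes measured in this list, 5, 4, 4 and 3 were 2-fold lower at 1, 2, 3.5 and 6 h and 5 in vegetative cells, while 1, 2, 1 and 2 were 2-fold higher at 1, 2, 3.5 and 6 h and 0 in vegetative cells. Over all genes, 22.6%, 21.3%, 16.7% and 14.9% were lower at 1, 2, 3.5 and 6 h and 14.6% in vegetative cells. The shares higher were 23.4%, 22.8%, 18.9% and 15.6% at 1, 2, 3.5 and 6 h and 15.8% in vegetative cells. The Argonaute gene ago1 stood at -2.45, -1.44, -2.21 and -1.70 at 1, 2, 3.5 and 6 h and at -1.96 in vegetative cells. The gene of its binding partner, arb1, had -3.60 at 1 h, against -0.82 in vegetative cells, and arb2 was 2-fold low on all 5 arrays, between -2.23 and -1.24. By contrast chp1, the RITS subunit among the 50, was above 0 on all arrays, the third RITS gene, tas3, stayed between -0.21 and 0.26, and the Dicer gene dcr1 between -0.37 and 0.42. The cullin gene cul4 of the Clr4 complex stood at 1.97, 1.55, 1.27 and 1.16 at 1, 2, 3.5 and 6 h and at 0.74 in vegetative cells, beside clr4 itself near 0.

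Of 18 genes of histone deacetylase complexes, 6 (33.3%) were 2-fold below G0 at 1 h and 1 (5.56%) above, hst2 at 1.94. Over all genes 22.6% were below and 23.4% above at 1 h. At 6 h none of the 18 was past the limit, beside 30.5% of all genes. Among 22 further SAGA and acetyltransferase genes, the acetyltransferase gene gcn5 stood at 1.79, 2.06, 1.39 and 1.15 at 1, 2, 3.5 and 6 h and at 1.18 in vegetative cells. Of these 22, 6 were low at 1 h, among them ubp8 at -1.81 and ptf2 at -2.04, and 3 were 2-fold higher, gcn5, mst1 at 1.71 and epl1 at 1.44. At 2 h 3 were lower and 2 higher, or 13.6% and 9.09%, beside 21.3% and 22.8% of all genes. The 27.3% lower and 13.6% higher at 1 h stand beside 22.6% and 23.4% of all genes. The list of 31 other remodeller genes held 4 above the limit and 4 below it at 1 h, 12.9% each. At 6 h it held 2 above (6.45%) and 0 below, beside 15.6% and 14.9% of all genes. The 21 genes of histone methylation and demethylation had 5 above and 5 below at 1 h, 23.8% each. The COMPASS gene ash2 stood between 1.06 and 1.92 on all arrays. The value of jmj1 was 2.27 at 1 h and -2.04 at 2 h, on 1 spot each. Among 15 histone chaperone genes, asf1 had log2 ratios of -0.53, -0.39, 0.90 and 1.54 at 1, 2, 3.5 and 6 h and 1.25 in vegetative cells. The HIRA complex gene hip1 had 0.12, 0.29, -0.66 and -1.12 at 1, 2, 3.5 and 6 h and -1.59 in vegetative cells. The first was thus highest at 6 h and the other lowest in vegetative cells.

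**Figure D4:**
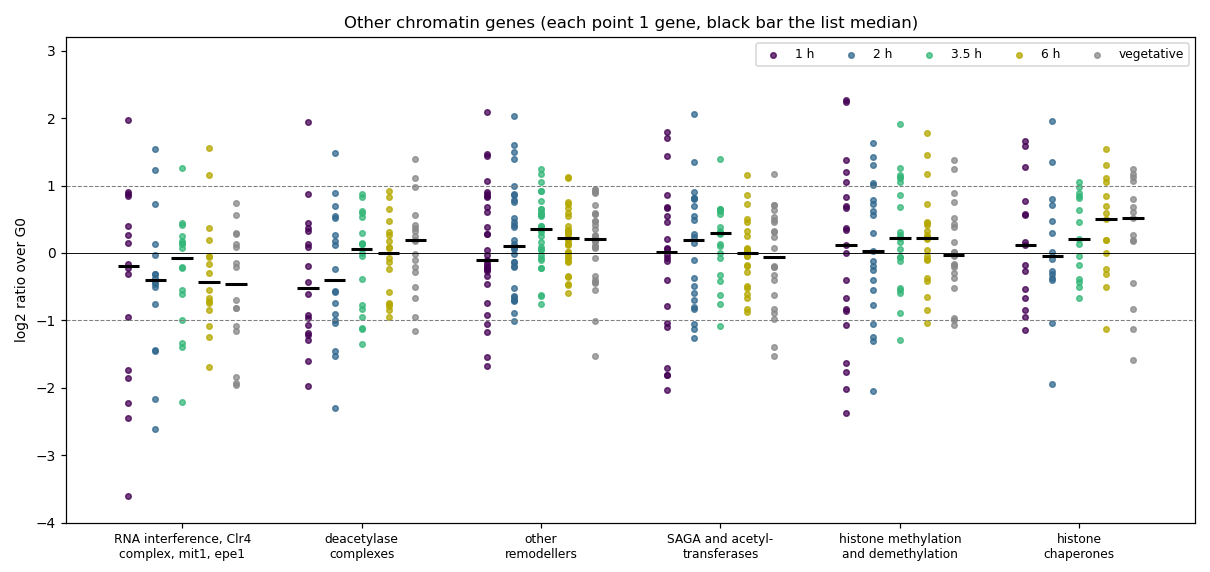
Log2 ratio over G0 (vertical axis) of 123 other chromatin genes in 6 lists, each point 1 gene, coloured by array (1, 2, 3.5 and 6 h, then vegetative), with the list median as a black bar. The lowest points are arb1 at -3.60 and -2.61 (1 and 2 h) and ago1, and the median of the list with the RNA interference genes is below 0 on all 5 arrays.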

How the data were processed

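The deposited table held 5188 rows of log ratios, 5184 of them spots in 16 blocks of 324 and 4 the authors' averages, which were left out. The authors deposited these values as log ratios without naming the base, and they were taken here as log2 ratios of Cy5 over Cy3, the dyes being per the labels. How images were read, corrected and normalized is not stated in the labels. No spot intensities entered the work, so dim spots could not be filtered, and the number of arrays limits the precision.

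For 3 of the 5 arrays (3.5 h, 6 h and vegetative), the deposited description states 2 h, in conflict with title and source. Title and source were followed, and every value given for these arrays rests on that choice. Spots of 1 gene were averaged over the 4864 spots with 1 symbol, after leaving out 1 nda3 spot on every array, found because its removal gives the authors' averages at 1 and 2 h. All 50 members matched the RefSeq gene table with the same symbol. The members, role lists and lists of other genes were chosen with earlier results of these data known. Every member is accounted for, and those past 2-fold and the highest and lowest of each role are named, with up to 4 of the other genes per comparison and further ones picked after their values were seen. No test was run. Counting was tested on simulated data. Python 3.11.15, numpy 2.4.6 and pandas 2.3.3 were used.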

Additional observations from a re-analysis of the deposited data

How the results depend on the processing

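No difference has a replicate, and no paired analysis was possible because each condition has 1 array. Counts of members past 2-fold and their medians were recomputed for the 9 comparisons. A count was taken as kept within 1.5 times. A median was taken as kept within 1 spot SD, or for a difference within the combined spot SD of its 2 arrays. That SD is not the error of a median of 50 genes. Centring the arrays moves a median by at most 0.14, below the smallest spot SD of 0.18. No median could therefore count as moved under that setting. Using the median or the first of repeated spots, or only genes with all values, could not change any of the 27 results. All 50 members have 1 spot each and a value on all 5 arrays. With arrays centred, the members lower in vegetative cells were 4, not 2, and those higher at 3.5 h than at 2 h were 0, not 1. Arrays centred and scaled gave 6 members higher at 1 h (10 as deposited), 4 lower at 3.5 h (2), 8 lower in vegetative cells (2), 0 higher at 3.5 h than at 2 h (1) and 2 higher at 6 h than in vegetative cells (0). Centred blocks gave 4 lower at 3.5 h and 5 lower in vegetative cells. The shares of all genes moved under these settings too. In vegetative cells 14.6% of all genes were lower as deposited. The share was 16.3% with arrays centred, 20.3% with arrays centred and scaled and 17.0% with centred blocks. Without the 7 members of other roles (swi1, swi2, swi3, swi5, swi10, set11 and set13), an alternative chosen after seeing the data, 1 member was lower at 2 h (3 with them), 1 at 3.5 h (2), 1 in vegetative cells (2) and 0 at 6 h against 3.5 h (1). Of the 55 member values past 2-fold, centring the arrays took 6 under the limit: snf59 (0.98) and set2 (0.98) at 1 h, spt2 (0.98) and set10 (0.895) at 3.5 h, swi6 at 6 h (0.97) and set10 in vegetative cells (0.91). Centring and scaling took 8 under it (spt2, snf59, set2 and chp1 at 1 h, snf59, chp1 and swi2 at 2 h, set10 at 3.5 h) and moved 24 of the 55 by over 1 spot SD. Centred blocks took 6 under it (spt2, snf59 and set2 at 1 h, snf59 at 2 h, spt2 and set10 at 3.5 h) and moved 9. The cause of each move was not tested beyond the change of zero point, scale or members itself.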
